A study of Mus musculus with 6 samples.

Results

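Eicosanoids are short-lived lipid signals made from arachidonic acid, and 10 mouse genes that make them, break them down or sense prostaglandins were followed in dendritic cells of the spleen. The 10 genes were chosen by name, as rows of the deposited count table that carry their Entrez IDs, and all 10 were found among its 27179 genes. They are the cyclooxygenase genes Ptgs1 and Ptgs2, the prostaglandin D2 synthase gene Hpgds, the prostaglandin-degrading enzyme gene Hpgd, the prostaglandin E2 receptor genes Ptger2 and Ptger4, and the leukotriene genes Alox5, Alox5ap, Lta4h and Ltc4s. Results of the same contrast were known when these genes were picked, so their differences between the groups are given as a description and support nothing by themselves.

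Messenger RNA was sequenced from CD8-negative dendritic cells sorted from C57BL/6 mouse spleen without culture, in 3 libraries from CpG-pretreated and 3 from untreated animals. CpG DNA activates Toll-like receptor 9, and by its title the series concerns paralysed cells that follow a systemic inflammatory syndrome. The series text calls the 3 libraries of each group biological replicates, and they carry the numbers 2, 3 and 4 in both. The sources used here do not give the age or sex of the mice, the CpG dose, route or interval, or whether 1 library comes from 1 mouse or a pool.

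Total counts were 7989245 to 8111975 in CpG-pretreated and 7855500 to 8228140 in untreated libraries, so that 1 read was worth 0.123 to 0.127 CPM, the count scaled to the size of its library. All 10 listed markers of conventional dendritic cells were detected, with summed levels of 46245 to 53829 CPM in CpG-pretreated and 49865 to 59483 CPM in untreated libraries. Cd74, H2-Aa, H2-Ab1 and H2-Eb1 made up most of these sums. Cd8a, the marker sorted against, was at 1.64 to 4.69 CPM in CpG-pretreated and 1.23 to 4.13 CPM in untreated libraries. Of 10 markers of the cDC2 subset edgeR called 1 lower, Esam (-0.75 on the log2 scale at an adjusted p of 0.0444), and 4 lower with the replicate number as a block. Over all genes tested, 0.500% were called lower without the block, and 3.78% lower and 4.73% higher with it. Of 8 markers of the cDC1 subset Xcr1, Irf8, Tlr3 and Itgae were higher with the block and were not called without it. The part of these subset markers in the results was not tested. Both libraries numbered 2 stood apart in how their log2 CPM deviated from the group mean with gene length. The Spearman correlation of deviation and length across genes was -0.545 in CpG-pretreated replicate 2 and -0.669 in untreated replicate 2, against 0.234 to 0.531 in the other 4. Deviations balance out within a group, so a negative trend in 1 library favours positive ones in the others. Erythroid markers were higher in CpG-pretreated libraries and uneven among them, with summed levels of 1118, 1063 and 256 CPM in replicates 2, 3 and 4, against 43.4 to 115 CPM in untreated libraries. Of 7 tested erythroid markers edgeR called 5 higher and none lower, where 0.474% of all genes were higher, and 3 higher with the block. Their median log2 fold change was 3.96. The part of these transcripts in the results was not tested.

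As background, phospholipases free arachidonic acid from membranes, and cyclooxygenases turn it into the prostaglandin precursor from which terminal synthases make the single prostaglandins. Prostaglandin E2 acts on dendritic cells through the EP2 and EP4 receptors, which raise cyclic AMP, and the dehydrogenase encoded by Hpgd ends the signal by oxidising the prostaglandin. In the parallel branch, the lipoxygenase encoded by Alox5, helped by the membrane protein encoded by Alox5ap, makes leukotriene A4, which Lta4h converts to leukotriene B4 and Ltc4s to leukotriene C4.

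The members fell into an abundant, a middle and a barely detected class. Levels between genes are compared as CPM per kilobase, using the gene lengths deposited with the counts. In the plot of length-adjusted levels, Alox5ap and Lta4h stood at the top. Alox5ap averaged 342 ± 24.9 CPM per kilobase in CpG-pretreated and 306 ± 47.4 in untreated libraries (SD, n = 3 each), and Lta4h averaged 173 ± 10.9 CPM per kilobase in CpG-pretreated and 169 ± 4.51 in untreated libraries. In untreated cells Alox5ap was above 98.9% and Lta4h above 97.4% of the tested genes. Hpgd came next in untreated cells at 28.3 ± 5.10 CPM per kilobase, followed by Hpgds at 13.1 ± 1.13, Ptger4 at 12.3 ± 0.497 and Ptgs2 at 8.68 ± 3.29. The ranges of Hpgds and Ptger4 overlapped in untreated libraries, as did those of Ptger4 and Ptgs2, and genes were not tested against each other. Within untreated replicates 2, 3 and 4 Hpgds lay above Ptger4. Ptger4 lay above Ptgs2 in untreated replicates 3 and 4, and just below it in replicate 2 (11.68 against 11.73 CPM per kilobase). Ltc4s, Ptgs1, Alox5 and Ptger2 lay at or below 0.985 CPM per kilobase on average. Among these, Ltc4s overlapped Ptgs1 and Alox5 overlapped Ptger2, and the order of Ltc4s and Ptgs1 turned round when the longest annotated transcript was used as the length. In CpG-pretreated cells Hpgd stood in the sixth place, at 7.92 ± 3.52 CPM per kilobase, and Ptger4 in the third at 15.2 ± 4.12.

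**Figure D1:**
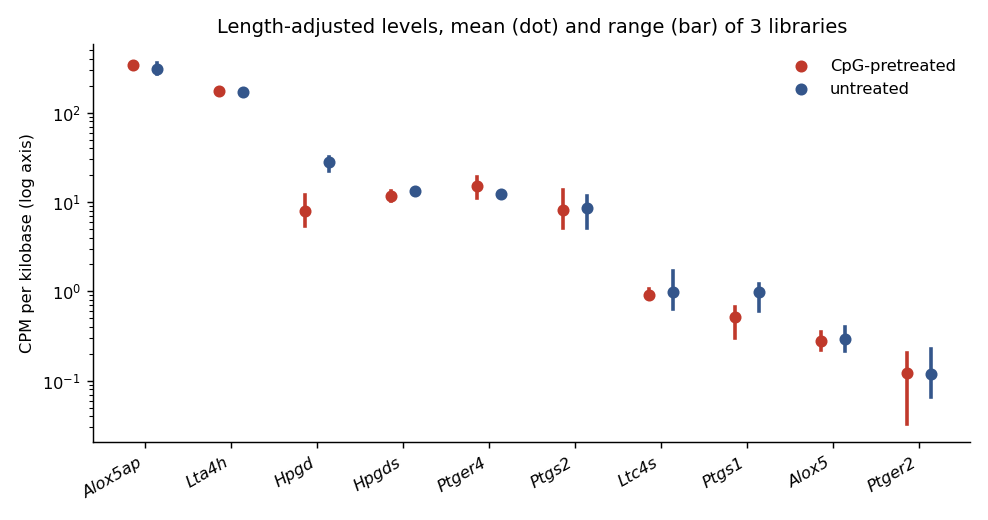
CPM per kilobase of gene length (log axis) for the 10 genes, ordered by their untreated mean; dots are means and bars the range of 3 libraries, with CpG-pretreated in red and untreated in blue. Alox5ap and Lta4h stand at the top in both groups, and the bars of Hpgd do not overlap between the groups.

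Of the 10 members 7 passed the filter on low counts and were tested, and 1 of them, Hpgd, was called, as lower in CpG-pretreated cells. By edgeR's quasi-likelihood test, with an adjusted p under 0.05 as the threshold, 0.500% of all 11602 genes tested were called lower, 0.474% higher and 0.974% in either direction. No member was called higher by edgeR, DESeq2 or limma-voom, and DESeq2 and limma-voom each called 1 lower, which was Hpgd. At an unadjusted p under 0.05 edgeR had 0 members higher and 2 lower, Hpgd and Ptgs1. Over all genes tested, 6.64% were higher and 6.16% lower at that unadjusted threshold, 2.24% and 1.45% by DESeq2's adjusted p, and 0.121% and 0.233% by that of limma-voom. The median log2 fold change of the 7 tested members was -0.09, beside -0.01 for all genes tested. The rule used this contrast, so the share of members called is not read against that background.

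Hpgd (Entrez 15446; GRCm38 chromosome 8, 56294552 to 56321046) encodes 15-hydroxyprostaglandin dehydrogenase, which inactivates prostaglandin E2. It was at 11.04, 9.26 and 20.5 CPM in CpG-pretreated replicates 2, 3 and 4, against 52.7, 38.6 and 54.7 CPM in untreated replicates 2, 3 and 4. The groups did not overlap, and CpG-pretreated replicate 4 was the highest of its group, at a level still below every untreated library. All CpG-pretreated libraries were lower than all untreated ones in 9.47% of the genes tested and higher in 9.20%, so that 18.7% did not overlap. These values rest on 73 to 163 reads in CpG-pretreated and 309 to 445 reads in untreated libraries. The log2 fold change was -1.84 (SE 0.28, edgeR adjusted p = 0.0388, and 5.37e-05 with the block). By this value the level was 3.58-fold higher in untreated cells. Paired by number, the log2 differences were -2.23, -2.03 and -1.40 for numbers 2, 3 and 4. In bulk RNA, fewer cells that express a gene and less RNA per cell cannot be told apart.

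In the fit without the block, the Hpgd call depended on which libraries were kept. By edgeR it was lost without CpG-pretreated replicate 2 (adjusted p = 0.149) or 3 (0.134), without untreated replicate 2 (0.0775), 3 (0.0975) or 4 (0.158), and without both libraries numbered 2 (0.341). It held without CpG-pretreated replicate 4 (adjusted p = 0.00274) and without both libraries numbered 4 (0.0114). The log2 fold change stayed between -2.26 and -1.62 in all of these fits.

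Some macrophage markers were called lower too. Of 16 red pulp macrophage markers, all of them tested, 4 were called lower by edgeR, none higher and 12 not at all, where 0.500% of all genes were lower. With the replicate number as a block 10 were lower and none higher, where 3.78% of all genes were lower. Fcgr1 had a positive log2 fold change, 0.57 (edgeR adjusted p = 0.660). The median log2 fold change of the list was -1.06. Its summed level was 366 to 488 CPM in CpG-pretreated and 523 to 695 CPM in untreated libraries, and no marker was at 0 in all libraries. The part of these transcripts in the Hpgd result was not tested. Adgre1, which encodes the F4/80 antigen, made up most of that sum and had a log2 fold change of -0.22 (edgeR adjusted p = 0.559).

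**Figure D2:**
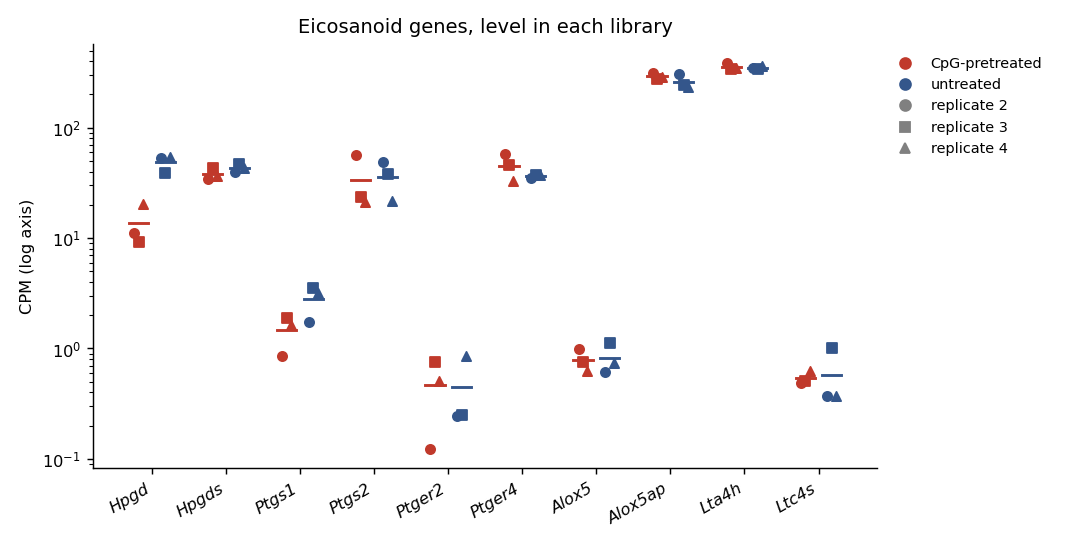
CPM of each eicosanoid gene in each library (log axis), with CpG-pretreated libraries in red on the left and untreated ones in blue on the right of each gene; marker shapes give the replicate number and lines the group means. The 3 CpG-pretreated values of Hpgd, at 9.26 to 20.5 CPM, lie below the untreated ones at 38.6 to 54.7 CPM, while the other 9 genes overlap.

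Other genes shared the profile of Hpgd over the 6 libraries. Among 10513 tested genes with an official symbol and an average log2 CPM of at least 1, the 5 nearest profiles by Euclidean distance of log2 CPM, each gene centred on its own mean, were those of Mmp12, Cd81, Kcnj16, Kctd12b and Meis3. Mmp12, which encodes macrophage elastase, was nearest at a distance of 0.175 on the log2 scale. It stood at 46.1, 41.7 and 83.4 CPM in CpG-pretreated replicates 2, 3 and 4, against 207, 174 and 236 CPM in untreated replicates 2, 3 and 4. As with Hpgd, CpG-pretreated replicate 4 was the highest of its group and untreated replicate 3 the lowest of its group. Cd81, a tetraspanin gene, followed at a distance of 0.446, with 21.3, 17.6 and 31.7 CPM in CpG-pretreated libraries and 75.0, 57.1 and 77.4 CPM in untreated ones. The potassium channel gene Kcnj16, Kctd12b and the homeobox gene Meis3 lay at 0.648, 0.662 and 0.750. All 5 profiles carry the difference between the groups that chose Hpgd, and their likeness to it is a description.

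**Figure D3:**
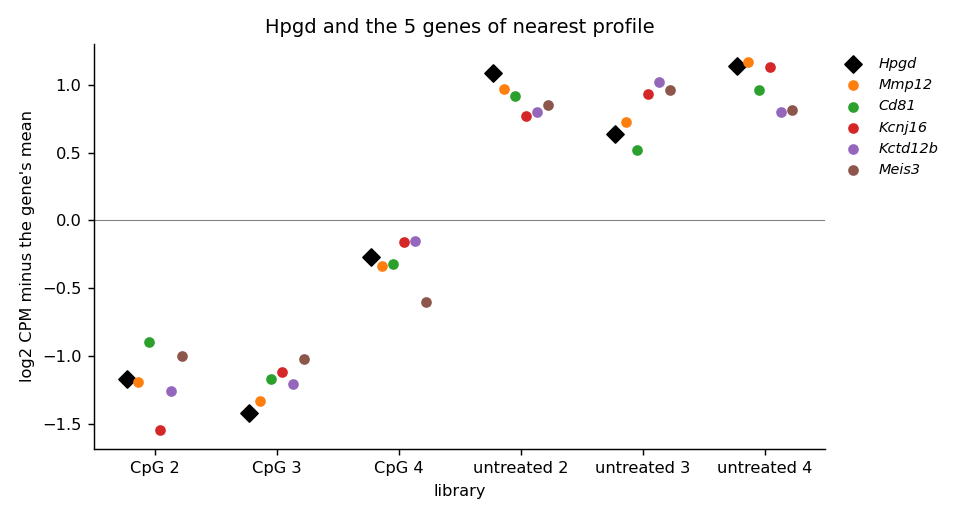
Log2 CPM minus the gene's own mean for Hpgd (black diamonds) and the 5 genes of nearest profile (coloured circles) in each of the 6 libraries, with CpG-pretreated libraries on the left. All 6 genes lie below 0 in the CpG-pretreated and above 0 in the untreated libraries, and they sit least far below it in CpG-pretreated replicate 4.

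The bases before the annotated start of Hpgd are printed beside those of Daglb, a pathway gene described further on that was also called in this contrast. Each window holds the 250 bases before the transcript start used in RefSeq's GRCm38.p6 promoter table, read on the plus strand, which is the strand of both genes. The windows are chr8:56294302-56294551 for Hpgd and chr5:143464243-143464492 for Daglb, the last 9 bases of which lie past the first base of the annotated Daglb gene, and capitals mark every motif match on either strand.
Hpgd: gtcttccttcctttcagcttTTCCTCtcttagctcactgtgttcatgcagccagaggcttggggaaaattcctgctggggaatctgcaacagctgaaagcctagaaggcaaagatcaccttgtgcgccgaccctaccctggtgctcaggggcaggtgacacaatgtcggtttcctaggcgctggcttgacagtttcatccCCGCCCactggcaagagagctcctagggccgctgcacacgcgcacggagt
Daglb: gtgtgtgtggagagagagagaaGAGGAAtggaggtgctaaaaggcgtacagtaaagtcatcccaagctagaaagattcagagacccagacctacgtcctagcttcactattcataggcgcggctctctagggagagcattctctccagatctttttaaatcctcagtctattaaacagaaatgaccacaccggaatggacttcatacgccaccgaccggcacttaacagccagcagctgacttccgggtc

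The search covered 6 motifs on both strands, and no 2 matches overlapped. The GC box GGGCGG matched once in Hpgd, and 32.7% of the 32851 RefSeq windows of the same length hold it. The PU.1 core GAGGAA matched once in Hpgd and once in Daglb, against 23.3% of windows. The GAS element TTCNNNGAA, the interferon-stimulated response element (GAAA, any 2 bases, GAAA), the TATA box TATAAA and the cyclic AMP response core TGACG had no match in these 2 windows, and 7.02%, 2.98%, 12.4% and 17.8% of all windows hold them.

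The genes of prostaglandin synthesis did not pass the test. Hpgds, whose product makes prostaglandin D2, was at 34.0, 43.5 and 36.8 CPM in CpG-pretreated replicates 2, 3 and 4, against 39.6, 47.0 and 43.4 CPM in untreated ones. The groups overlapped, and the log2 fold change was -0.19 (SE 0.13, edgeR adjusted p = 0.654). Hpgds is also a gene of mast cells, and of the 10 mast cell and basophil markers Fcer1a, Ms4a2 and Tpsb2 had no read in any library, while Cpa3, Cma1 and Mcpt8 had at most 3 in each. Of the other 4, Gata2 and Prss34 had at most 6 reads in any library. Hdc, the histidine decarboxylase gene, was at 6.75 to 9.38 CPM in CpG-pretreated and 7.38 to 9.09 CPM in untreated libraries. The stem cell factor receptor gene Kit was at 507 to 682 CPM in CpG-pretreated and 510 to 625 CPM in untreated libraries.

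Ptgs2, the inducible cyclooxygenase gene, was at 56.9, 23.6 and 21.2 CPM in CpG-pretreated replicates 2, 3 and 4, against 48.7, 37.9 and 21.5 CPM in untreated ones. It was highest in the replicate 2 library and lowest in the replicate 4 library of each group, and the groups overlapped throughout. The log2 fold change was -0.09 (SE 0.41, edgeR adjusted p = 0.969), and the sign turned in 3 of the fits that left out 1 library. Ptgs1, the constitutive cyclooxygenase gene, had 7, 15 and 13 reads in CpG-pretreated and 14, 28 and 26 reads in untreated replicates 2, 3 and 4, which equals 0.859, 1.90 and 1.64 CPM against 1.72, 3.50 and 3.20 CPM. It was lower in the CpG-pretreated library of each number, at a log2 fold change of -0.93 (SE 0.39), and the groups overlapped (edgeR adjusted p = 0.359). Per kilobase, Ptgs2 made up 97.9%, 89.5% and 89.9% of the 2 cyclooxygenase genes in CpG-pretreated replicates 2, 3 and 4, against 95.1%, 88.2% and 82.3% in untreated ones.

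The ratio of the summed cyclooxygenase genes to Hpgd, per kilobase, was 2.18, 1.18 and 0.475 in CpG-pretreated replicates 2, 3 and 4, against 0.402, 0.461 and 0.198 in untreated ones. The lowest CpG-pretreated library, replicate 4, was just above the highest untreated one, replicate 3. The ratio of Hpgds to Hpgd was 1.604, 2.45 and 0.934 in CpG-pretreated libraries, against 0.391, 0.634 and 0.413 in untreated ones. These ratios contain Hpgd and were given no test.

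Of the 2 prostaglandin E2 receptor members, Ptger4 carried nearly all the reads. Ptger4 was at 57.3, 45.5 and 32.9 CPM in CpG-pretreated replicates 2, 3 and 4, against 34.7, 37.0 and 37.4 CPM in untreated ones. Replicates 2 and 3 of the CpG-pretreated group lay above, and replicate 4 below, every untreated library. The log2 fold change was 0.32 (SE 0.19, edgeR adjusted p = 0.567). Ptger2 had 1, 6 and 4 reads in CpG-pretreated and 2, 2 and 7 reads in untreated replicates 2, 3 and 4, so it was not tested, and no difference was detectable at this depth. Per kilobase, Ptger4 made up 98.7% to 99.8% of the pair in CpG-pretreated and 98.2% to 99.5% in untreated libraries.

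The leukotriene genes showed a wide gap between partners. Alox5ap, which encodes the protein that presents arachidonic acid to the lipoxygenase, was at 315, 273 and 288 CPM in CpG-pretreated replicates 2, 3 and 4, against 307, 244 and 232 CPM in untreated ones. Its log2 fold change was 0.16 (SE 0.13, edgeR adjusted p = 0.722), and the groups overlapped. Alox5, the lipoxygenase gene itself, had 8, 6 and 5 reads in CpG-pretreated and 5, 9 and 6 reads in untreated libraries. Per kilobase, Alox5ap exceeded Alox5 by a factor of 1255 ± 232 in CpG-pretreated and 1139 ± 477 in untreated libraries (SD, n = 3 each), factors that rest on the few Alox5 reads.

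Lta4h, the leukotriene B4-forming hydrolase gene, was at 383, 342 and 347 CPM in CpG-pretreated replicates 2, 3 and 4, against 347, 343 and 360 CPM in untreated ones. It was among the steadiest members, at a log2 fold change of 0.03 (SE 0.09) with an edgeR adjusted p of 0.955, whose sign turned with upper quartile scaling and without CpG-pretreated replicate 2 or both libraries numbered 2. Ltc4s, the leukotriene C4 synthase gene, had 4, 4 and 5 reads in CpG-pretreated and 3, 8 and 3 reads in untreated libraries and was not tested. In the GENCODE M21 annotation an antisense gene overlaps 26.4% of the exon bases of Ltc4s and another 13.3% of those of Alox5ap, and a pseudogene on the opposite strand covers 15.3% of Ptger4. The sources used here do not state whether counting used the strand, so reads of such partners cannot be told apart.

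The other genes of the pathway were taken from 5 lists of 95 genes in all, of which 70 were tested. By edgeR, 2 of the 70 were called, both lower, and the median log2 fold change was -0.01, the same as for all genes tested to 2 decimals. With the replicate number as a block 12 were called, 5 higher and 7 lower, where the block called 8.52% of all genes tested (4.73% higher and 3.78% lower). DESeq2 called 7 of the 70, 4 higher and 3 lower, where it called 2.24% of all genes higher and 1.45% lower. limma-voom called 1, which was lower, where it called 0.233% of all genes lower. At an unadjusted p under 0.05, edgeR put 8 of the 70 higher and 9 lower, where 6.64% of all genes were higher and 6.16% lower. The counts by single lists that follow are read beside these same shares.

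In the list of phospholipases and arachidonate supply, 2 of 18 tested genes were called by edgeR, both lower. Pla2g7, which encodes the platelet-activating factor acetylhydrolase, was at 28.1, 30.1 and 34.8 CPM in CpG-pretreated replicates 2, 3 and 4, against 70.7, 51.9 and 66.1 CPM in untreated ones. The groups did not overlap, and the log2 fold change was -1.02 (SE 0.14, edgeR adjusted p = 0.0388, and 8.89e-05 with the block). An antisense gene covers 319 of its 2905 exon bases. Daglb, a diacylglycerol lipase gene of the pathway that feeds 2-arachidonoylglycerol, was at 37.0, 39.8 and 45.6 CPM in CpG-pretreated libraries, against 62.7, 63.5 and 59.2 CPM in untreated ones. It fell by 0.60 on the log2 scale (SE 0.11, edgeR adjusted p = 0.0492, and 0.00123 with the block). Its call was lost by limma-voom (adjusted p = 0.0631) and with RLE size factors (adjusted p = 0.0513). Exons of Rac1 on the opposite strand cover 24.1% of the exon bases of Daglb. In the edgeR fit without the block, both calls held without CpG-pretreated replicate 4 (adjusted p = 0.0154 for Pla2g7 and 0.0225 for Daglb). Both were lost when any other library was left out, with adjusted p up to 0.158 and 0.2005.

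Plaat3, a phospholipase A and acyltransferase gene, was not called without the block. It was at 63.9, 74.7 and 29.8 CPM in CpG-pretreated replicates 2, 3 and 4, against 21.9, 20.1 and 12.9 CPM in untreated ones, and the number 4 library was the lowest in each group. The groups did not overlap. The log2 fold change was 1.62 (SE 0.33, edgeR adjusted p = 0.0697), with a call under the block (adjusted p = 8.46e-06) and without CpG-pretreated replicate 4 (adjusted p = 0.00495). Abhd12, a lipase gene, and Mboat7, an acyltransferase gene that places arachidonate in phosphatidylinositol, were the most abundant of the list per kilobase, with log2 fold changes of -0.14 and 0.07 (edgeR adjusted p = 0.651 and 0.852).

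**Figure D4:**
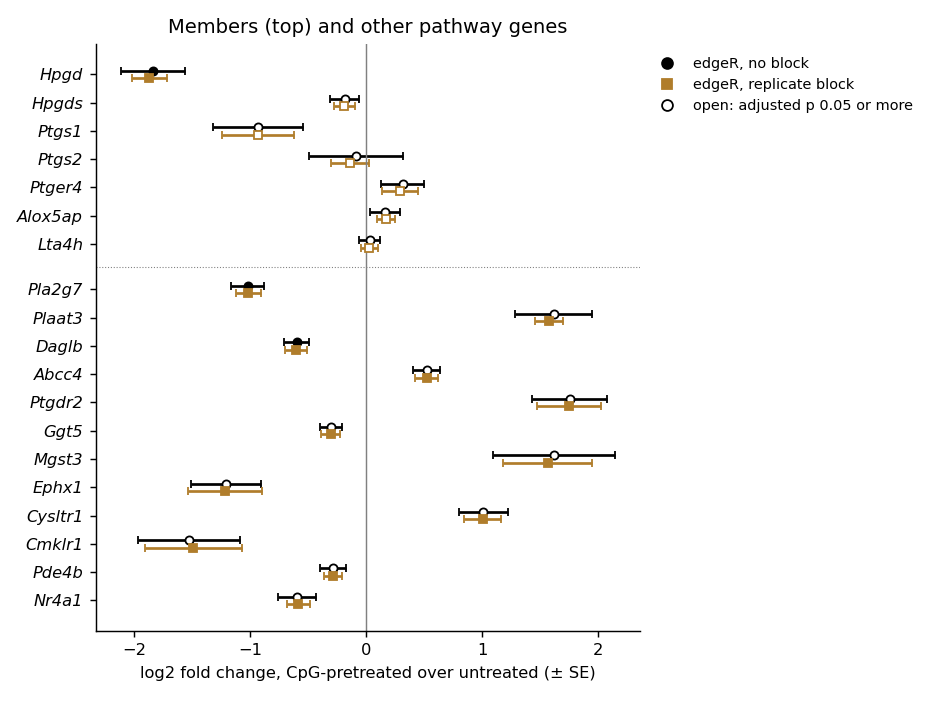
Log2 fold change of CpG-pretreated over untreated cells with its standard error, for the 7 tested members above the dotted line and the 12 pathway genes called with or without the replicate block below it; black circles are the edgeR fit without and brown squares the fit with the block, and open symbols have an adjusted p of 0.05 or more. Hpgd has the lowest value of the 19 genes, and the filled black symbols are Hpgd, Pla2g7 and Daglb.

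None of the 8 tested prostanoid synthases and reductases was called by edgeR, with or without the block, or by DESeq2 or limma-voom, and 1 was higher at an unadjusted p under 0.05 by edgeR. Ptgr2, a prostaglandin reductase gene, and Akr1b3, an aldose reductase gene, were the most abundant per kilobase, with log2 fold changes of -0.03 and -0.17 (edgeR adjusted p = 0.961 and 0.766), and a long non-coding gene on the opposite strand covers 1896 of the 5929 exon bases of Ptgr2. Ptges, the inducible prostaglandin E synthase gene, was at 0 to 0.127 CPM in CpG-pretreated and 0 to 0.246 CPM in untreated libraries and was not tested. The other prostaglandin E synthase genes were detected. Ptges2 averaged 10.4 CPM in CpG-pretreated and 11.4 CPM in untreated libraries (edgeR adjusted p = 0.895). Ptges3 averaged 8.49 and 6.58 CPM (edgeR adjusted p = 0.558). Tbxas1, the thromboxane synthase gene, was at 7.56 to 9.004 CPM in CpG-pretreated and 8.73 to 10.7 CPM in untreated libraries. Ptges, Ptges2, Ptges3 and Tbxas1 were chosen after their values were seen.

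Among the 5 tested prostanoid transporters and receptors none was called by edgeR, 2 were higher at an unadjusted p under 0.05, and the same number were higher with the block and by DESeq2. Ptgdr2, which encodes the DP2 receptor for prostaglandin D2, was at 5.03, 7.36 and 4.03 CPM in CpG-pretreated replicates 2, 3 and 4, against 1.84, 1.88 and 1.11 CPM in untreated ones. The groups did not overlap, and the log2 fold change came to 1.76 (SE 0.32, edgeR adjusted p = 0.0537, and 0.00114 with the block). Without CpG-pretreated replicate 4 the edgeR adjusted p was 0.0224. Exons of Ccdc86 on the opposite strand cover 39.0% of its exon bases. Abcc4, an exporter of prostaglandins, was at 48.4, 56.1 and 48.4 CPM in CpG-pretreated libraries, against 32.3, 35.3 and 38.8 CPM in untreated ones (log2 fold change 0.52, SE 0.12, edgeR adjusted p = 0.0828, and 0.00374 with the block). Ptger3, another prostaglandin E2 receptor gene, had a log2 fold change of 0.05 at 38.8 to 49.999 CPM in CpG-pretreated and 40.7 to 48.4 CPM in untreated libraries (edgeR adjusted p = 0.948). Per kilobase Ptger3 averaged 22.5 CPM in CpG-pretreated and 21.7 CPM in untreated libraries, above the means of Ptger4 at 15.2 and 12.3 CPM.

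**Figure D5:**
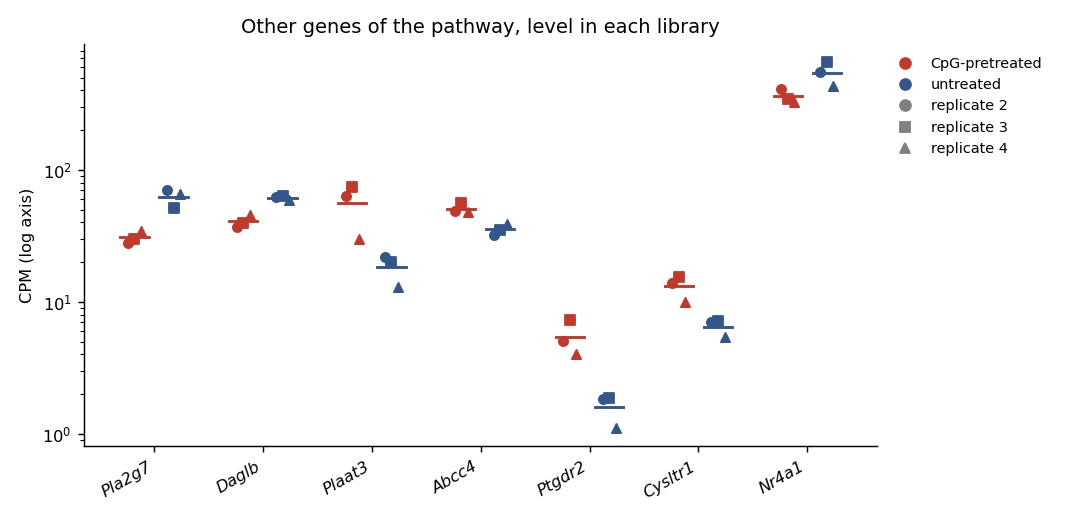
CPM in each library (log axis) for 7 pathway genes other than the members, with CpG-pretreated libraries in red on the left and untreated ones in blue on the right of each gene; marker shapes give the replicate number and lines the group means. In each of the 7 genes the groups do not overlap, with Pla2g7, Daglb and Nr4a1 lower and Plaat3, Abcc4, Ptgdr2 and Cysltr1 higher in CpG-pretreated libraries. The 7 were picked from the 12 pathway genes called with or without the block. Of those not shown, Mgst3 and Pde4b overlapped, while Ggt5, Ephx1 and Cmklr1 were lower in CpG-pretreated libraries without overlap. Of all 70 tested pathway genes, 6 were higher and 11 lower without overlap, where 18.7% of all genes tested did not overlap.

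In the leukotriene and lipoxygenase list none of 13 tested genes was called by edgeR, 3 were higher and 4 lower at an unadjusted p under 0.05, and DESeq2 called 1 higher. With the block 2 were higher and 3 lower. Cysltr1, a receptor gene for cysteinyl leukotrienes, was at 13.98, 15.3 and 10.1 CPM in CpG-pretreated replicates 2, 3 and 4, against 7.005, 7.13 and 5.41 CPM in untreated ones. Its log2 fold change was 1.01 (SE 0.21, edgeR adjusted p = 0.0702, and 0.00154 with the block). Every CpG-pretreated library lay above every untreated one. Mgst3, a microsomal glutathione transferase gene, stood at 5.03, 3.42 and 1.13 CPM in CpG-pretreated libraries, against 1.23, 0.875 and 0.983 CPM in untreated ones, and overlapped between the groups (1.62, edgeR adjusted p = 0.219, and 0.0215 with the block).

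The 3 genes lower with the block in that list were Ggt5, Ephx1 and Cmklr1. Ggt5, whose product converts leukotriene C4 to leukotriene D4, was at 69.1, 71.0 and 79.5 CPM in CpG-pretreated replicates 2, 3 and 4, against 89.7, 90.8 and 90.5 CPM in untreated ones (log2 fold change -0.30, edgeR adjusted p = 0.207, and 0.0311 with the block). The epoxide hydrolase gene Ephx1 had -1.21 (edgeR adjusted p = 0.109, and 0.0287 with the block), while Cmklr1, a chemerin receptor gene, had -1.53 (0.163, and 0.0408 with the block), both at under 4 CPM in every library. Cotl1, whose product binds the lipoxygenase, and the leukotriene exporter gene Abcc1 were the most abundant of the list per kilobase, with log2 fold changes of 0.11 and -0.07 (edgeR adjusted p = 0.750 and 0.927).

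Of the 26 tested genes of EP2 and EP4 signalling and cyclic AMP none was called by edgeR, 3 were lower and none higher at an unadjusted p under 0.05, and DESeq2 called 1 lower. With the block 2 were lower, Nr4a1 and Pde4b. Nr4a1, a nuclear receptor gene that cyclic AMP can induce, was at 414, 344 and 326 CPM in CpG-pretreated replicates 2, 3 and 4, against 549, 654 and 435 CPM in untreated ones. The groups did not overlap, and the log2 fold change came to -0.60 (SE 0.16, edgeR adjusted p = 0.132, and 0.00415 with the block). Nr4a1 was also in the monocyte marker list, whose other 9 genes summed to 212 to 246 CPM in CpG-pretreated and 235 to 330 CPM in untreated libraries. Of the 9 tested genes of that list edgeR called none without the block. With it 3 were lower and none higher, where 3.78% of all genes were lower. Beside Nr4a1 these were Treml4 (log2 fold change -0.47, edgeR adjusted p = 0.0157 with the block) and Ace (-0.74, 0.000177 with the block). Ly6c2 had a positive value, 1.57 (edgeR adjusted p = 0.238). The part of monocyte transcripts in the Nr4a1 level was not tested. Pde4b, a cyclic AMP phosphodiesterase gene, was at 159, 167 and 191 CPM in CpG-pretreated libraries, against 189, 220 and 223 CPM in untreated ones (-0.29, edgeR adjusted p = 0.322, and 0.0313 with the block). Grk2, a receptor kinase gene, was the other most abundant gene of the list beside Nr4a1 and had a log2 fold change of -0.07 (edgeR adjusted p = 0.859).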

How the data were processed

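The authors deposited raw read counts for each Entrez gene together with a gene length, and the submitters' processing notes name CASAVA, featureCounts and mm10. The sources used here give no aligner, strand setting or version. The tests ran in edgeR 4.0.16 under R 4.3.3 (filterByExpr with a minimum count of 10 and a minimum total of 15, TMM, robust quasi-likelihood F test, Benjamini-Hochberg adjustment over all genes tested), two-sided. The SE of a log2 fold change is its absolute value divided by the square root of the F statistic. limma 3.58.1 (voom) and DESeq2 1.42.0 were alternatives. CPM used TMM-scaled library sizes, and log2 CPM a prior count of 2. The test was checked on simulated data with independent libraries and a common dispersion. Those data held no replicate or gene-length trend, so the check does not cover these. Symbols and positions came from RefSeq GRCm38.p6 (25275 IDs matched, 1904 did not) and overlaps from GENCODE M21.

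No pair of libraries within a group agreed within sampling noise (chi-square per degree of freedom of 3.17 to 19.7). Deviations from the group mean correlated across genes at 0.479, 0.25 and 0.311 between libraries numbered 2, 3 and 4, each over 0.1. Between libraries of unlike number the values ran from -0.394 to 0.0662. The pairing comes from these data, since no label explains the numbering. Both libraries numbered 2 also shared the trend with gene length, and its part in their correlation was not tested. Values with the replicate block are given where a call changes, and for Hpgd, Pla2g7 and Daglb.

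Members, pathway lists and marker lists were chosen with earlier results of these data known. The text names all members, pathway genes called with or without the block, and the 2 most abundant per kilobase of each list. It also names the 5 profiles nearest to a called member. Of these, 1 abundant gene is not reported here.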

Additional observations from a re-analysis of the deposited data

How the results depend on the processing

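The single call among the 10 members, Hpgd, was made under 10 of 16 refitted alternatives and kept its direction under all 16. The count was 0 without both libraries numbered 2 and between 0 and 1 when 1 library was left out. Other pathway genes called numbered 2 in the reported fit, 12 with the replicate block, 7 by DESeq2, 1 by limma-voom, 1 with RLE size factors and 4 without a filter. They numbered 0 without both libraries numbered 2 (14 at an unadjusted p under 0.05), 1 without both numbered 4, a setting chosen after seeing the data, and between 0 and 6 when 1 library was left out. Over all genes 113 were called, 988 with the block, 428 by DESeq2, 41 by limma-voom, 189 without a filter, 67 without both libraries numbered 2, and between 0 and 386 when 1 library was left out. The 0 came without CpG-pretreated replicate 2 or 3, with 1065 and 1107 genes at an unadjusted p under 0.05. Without untreated replicate 2, 3 or 4 the counts were 34, 2 and 1, and without CpG-pretreated replicate 4 the count of 386 was 275 higher and 111 lower.

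The signs that turned belonged to genes with no call. Lta4h had a log2 fold change of -0.00095 with upper quartile scaling and -0.027 without both libraries numbered 2, where Ptger3 had -0.033. With 1 library left out, the values ran from -0.021 to 0.070 for Lta4h, -0.69 to 0.21 for Ptgs2, -0.069 to 0.045 for Ptgr2, -0.027 to 0.16 for Ptger3 and -0.18 to 0.029 for Abcc1. The cause of these changes was not tested. Depth limits Ptger2, Alox5 and Ltc4s, with at most 9 reads in any library, and 3 reads equal 0.368 to 0.380 CPM.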
